A study of Mus musculus with 6 samples.

Results

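The genes described here are the 10 transcription factor genes Gata2, Mitf, Cebpa, Cebpb, Cebpe, Spi1, Irf8, Gfi1, Stat5a and Stat5b, whose products steer blood progenitors towards mast cells and basophils or towards neutrophils and monocytes. They were taken from a list of names, and each was found through its RefSeq accession as 1 entry among the 23146 entries used, so all 10 were measured. Their RNA was sequenced in 6 libraries of EML cells, a bone marrow progenitor line of the mouse that depends on stem cell factor (SCF). The series asked how loss and gain of KAI1, the tetraspanin membrane protein that Cd82 encodes, change mRNA levels. The groups were KAI1 knockdown (n = 2), its control, labelled wild type (n = 2), KAI1 overexpression (n = 1) and its own control, also labelled wild type (n = 1). All 6 libraries are labelled with strain BDF1, and all cells were kept in IMDM with 20% FBS and SCF at 200 ng/ml. EML was made by transferring a dominant-negative retinoic acid receptor alpha into bone marrow cells, so every group shares that receptor and comes from 1 line. The means of knockdown and overexpression, and whether the numbered replicates were separate cultures, could not be told from the labels. If the cultures were not separate, p-values reflect only the technical spread between these samples.

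GATA2 is a zinc finger factor of stem and progenitor cells that is kept on in mast cells, where it works with MITF, a basic helix-loop-helix factor, on genes for granule proteases, histamine synthesis and the IgE receptor. C/EBP alpha drives progenitors towards granulocytes and monocytes, and in mouse basophil and mast cell precursors it and MITF repress each other. PU.1, the product of Spi1, is needed by both myeloid and mast cells, with GFI1 and IRF8 acting on the neutrophil and monocyte sides, while the STAT5 proteins carry signals from the SCF receptor KIT and from cytokine receptors.

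Values are the authors' RPKM, reads relative to transcript length and to all mapped reads, so levels of different genes can be set side by side per length. Depth, estimated from the spacing of low values, was about 9810000 to 25700000 reads per library. Cd82 itself stood at 7.66 and 6.91 RPKM in the KAI1 knockdown, against 43.9 and 13.8 RPKM in its controls, and at 15.2 RPKM in the KAI1 overexpression, against 11.9 RPKM in its control. The knockdown libraries lay below both controls, but the difference did not pass limma's test (log2 difference -1.64, SE 0.58, adjusted p = 0.83). The labels call the cells basophils. Mcpt8, a basophil protease, stood at 116 to 3908 RPKM, but Fcer1a, the chain of the high-affinity receptor that binds IgE, had a listed value of 0 in KAI1 knockdown replicate 1 and knockdown control replicate 2, and Prss34, another basophil protease, reached at most 4.20 RPKM. Knockdown control replicate 1 stood apart from the other libraries. The summed RPKM of 13 mast and basophil markers was 5167 and 4496 in the KAI1 knockdown, against 43762 and 8105 in its controls, and 20052 in the KAI1 overexpression, against 4019 in its control. For 8 erythroid markers the sums were 2361 and 2698 in the knockdown, against 164 and 2835 in the knockdown controls, and 682 in the overexpression, against 2211 in its control. Knockdown control replicate 1 and the KAI1 overexpression thus had the highest mast marker sums and the lowest erythroid marker sums. Such sums are weighted by the most abundant genes, and not every marker followed them. Gata1, among the erythroid markers, was highest in knockdown control replicate 1, at 87.25 RPKM. Mcpt8 stood there at 160 RPKM, against 389 RPKM in replicate 2. In RNA from whole cultures, fewer cells of a type and less RNA per cell cannot be told apart.

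Across the 6 libraries, 4 of the 10 genes had a mean of at least 10 RPKM. Gata2 averaged 134 RPKM, Stat5a 48.9 RPKM, Spi1 36.4 RPKM and Stat5b 18.6 RPKM. Mitf averaged 6.22 RPKM, the C/EBP genes and Gfi1 averaged 0.804 to 2.07 RPKM, and Irf8 was listed at 0 throughout. Gata2 was the highest of the 10 in every library and Stat5b the fourth in every library. Stat5a came second, except in knockdown control replicate 1 and the KAI1 overexpression, where Spi1 did. Mitf followed Stat5b in all but the overexpression control, where Cebpa at 4.11 RPKM stood above Mitf at 2.61 RPKM. Only 3.31% of all entries had a higher mean than Gata2.

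**Figure D1:**
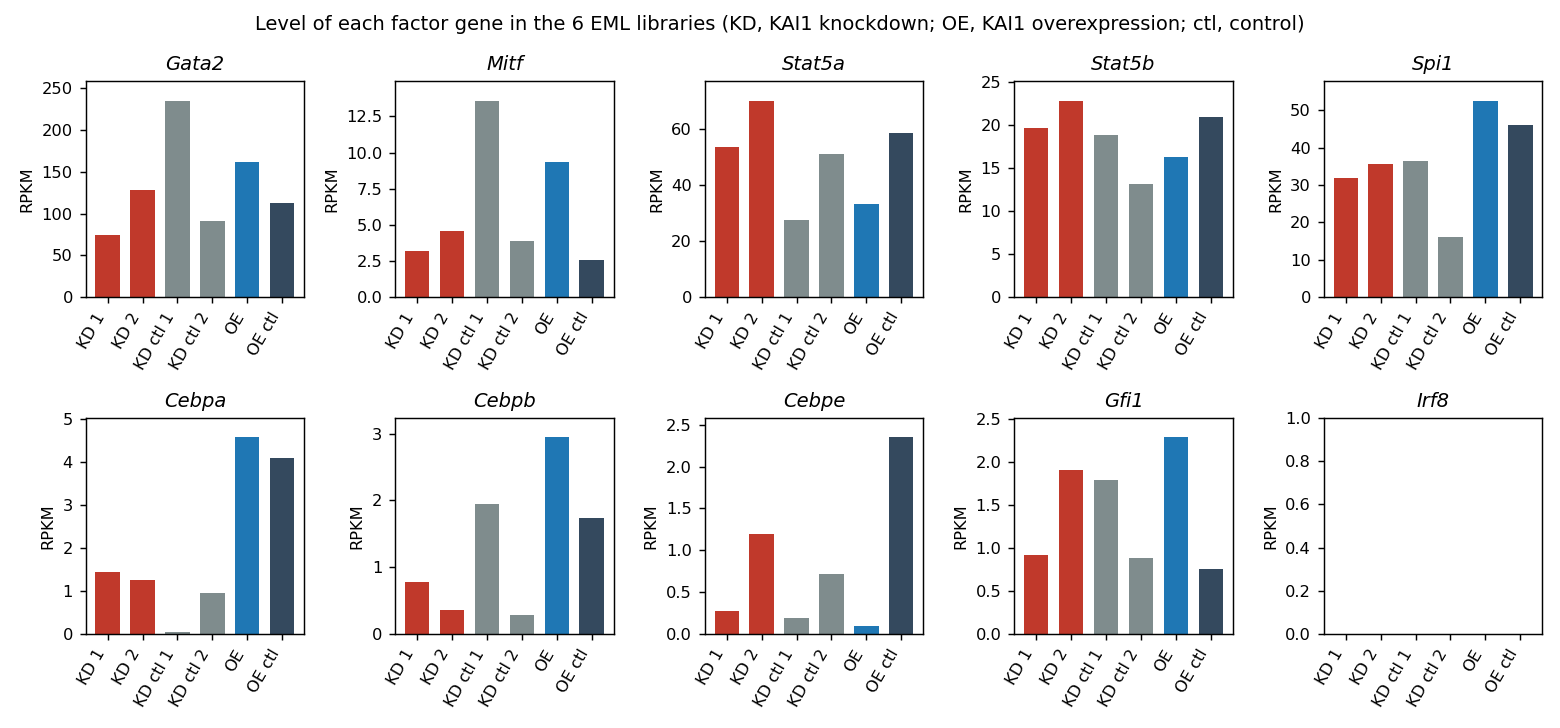
Level of each of the 10 factor genes in RPKM (vertical axis, a scale of its own for each gene) in each library; each bar is 1 library, so there are no error bars. Gata2 and Mitf are highest in knockdown control replicate 1, at 235 and 13.6 RPKM, where Cebpa is lowest, at 0.0399 RPKM, and the Irf8 panel is empty because Irf8 was listed at 0 in all 6 libraries.

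Gata2 (mm9 chromosome 6, 88148658 to 88157026) had 74.3 and 128 RPKM in the KAI1 knockdown, against 235 and 91.0 RPKM in the knockdown controls. The knockdown libraries fell on either side of the lower control, so the groups overlapped. The means were 101 ± 38.2 RPKM in the knockdown and 163 ± 102 RPKM in the controls (SD, n = 2 each). On the log2(RPKM + 1) scale used for every difference below, which understates the change of low genes, the knockdown minus control difference was -0.58 (SE 0.58, 95% interval -2.14 to 0.98, adjusted p = 0.842 by limma). The 2 controls differed from each other by 1.36 on the same scale, more than the groups did. In the overexpression arm Gata2 stood at 161 RPKM in the KAI1 overexpression, against 112 RPKM in its control, a difference of 0.52 with 1 library on each side and so no test. Without knockdown control replicate 1 the knockdown difference was 0.10 and thus turned to the other direction (adjusted p = 0.915), and without replicate 2 it was -1.26 (adjusted p = 0.124).

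Mitf (chromosome 6, 97757052 to 97971352) had 3.22 and 4.61 RPKM in the KAI1 knockdown, against 13.6 and 3.92 RPKM in the knockdown controls. Again 1 control was far above and the other lay between the knockdown libraries. Its means were 3.92 ± 0.987 RPKM in the knockdown and 8.76 ± 6.84 RPKM in the controls (SD, n = 2 each), a log2 difference of -0.80 (SE 0.59, 95% interval -2.38 to 0.78, adjusted p = 0.83 by limma). The controls were 1.57 apart. Left without knockdown control replicate 1, the difference was -0.02 (adjusted p = 0.982), and without replicate 2 it was -1.58 (adjusted p = 0.0517), in a fit where the spread comes from the 2 knockdown libraries alone and the lone control is assumed to vary like them. The KAI1 overexpression held 9.38 RPKM of Mitf, against 2.61 RPKM in its control, 3.60-fold higher in RPKM and 1.53 higher on the log2 scale. Mitf had a 5.21-fold range over the 6 libraries, and 10.3% of entries averaging 1 RPKM or more had a wider range of log2 values. The profiles of Gata2 and Mitf were nearer to each other than to those of the other 6 factor genes averaging 1 RPKM or more. Both had knockdown control replicate 1 highest and the KAI1 overexpression next. The margin was small, since Gfi1 lay almost as near to Gata2 (0.366) as Mitf did (0.347), by the measure of likeness described below. The Gata2 to Mitf ratio was 23.1 and 27.8 in the knockdown, against 17.3 and 23.2 in its controls, and 17.2 in the overexpression, against 43.1 in its control.

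GATA factors bind a short motif, searched here as AGATAA or TGATAA on both strands in the 250 bases before each RefSeq start site (build GRCm38.p6). It occurs before 16.6% of all 32851 start sites and before at least 1 start site of 18.8% of genes. RefSeq promoters were matched for 8 of the 10 factor genes, and Mitf was the only one of the 8 with this motif, at 2 of its 3 start sites. That is 12.5% of the 8, below the 18.8% of genes. Both windows are shown as the only ones with a match among these factor genes, and a link between the motif and the profile of Gata2 was not tested. They lie on the plus strand at chr6:97929567-97929816 and chr6:97991533-97991782, with the motif (in capitals, on the minus strand in the first and the plus strand in the second) beginning 36 and 13 bases before the start site. A match is a description of letters and not a bound site, and RPKM per gene do not tell which start was used.
Mitf, first window: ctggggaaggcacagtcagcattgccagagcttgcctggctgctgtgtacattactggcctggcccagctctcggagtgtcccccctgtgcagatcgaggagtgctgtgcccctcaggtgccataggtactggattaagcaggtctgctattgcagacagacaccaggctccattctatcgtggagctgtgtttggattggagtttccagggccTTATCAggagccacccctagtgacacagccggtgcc
Mitf, second window: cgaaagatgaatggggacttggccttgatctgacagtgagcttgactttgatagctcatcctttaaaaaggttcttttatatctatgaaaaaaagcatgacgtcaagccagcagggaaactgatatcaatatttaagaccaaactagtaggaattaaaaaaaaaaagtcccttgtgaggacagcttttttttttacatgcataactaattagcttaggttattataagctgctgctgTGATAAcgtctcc

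Stat5a and Stat5b are neighbours on chromosome 11 (100720665 to 100746483 and 100642045 to 100711899) with closely similar coding sequences, and how the authors' counting split reads between the pair is not known. Stat5a stood at 53.4 and 69.9 RPKM in the KAI1 knockdown, against 27.4 and 50.9 RPKM in the knockdown controls. Stat5b stood at 19.7 and 22.8 RPKM in the knockdown, against 18.8 and 13.2 RPKM in the controls. Both genes were higher in each knockdown library than in either control, by a narrow gap to the nearer control, as 21.5% of all tested entries were, and the gap between the controls was larger than the group difference. For Stat5a the means were 61.7 ± 11.7 RPKM in the knockdown and 39.2 ± 16.6 RPKM in the controls (SD, n = 2 each), and the log2 difference was 0.69 (SE 0.39, 95% interval -0.36 to 1.75, adjusted p = 0.83 by limma). For Stat5b they were 21.2 ± 2.22 RPKM in the knockdown and 16.0 ± 3.99 RPKM in the controls, with a log2 difference of 0.40 (SE 0.28, 95% interval -0.34 to 1.15, adjusted p = 0.83 by limma). Both thus missed the threshold. Without knockdown control replicate 1 Stat5a differed by 0.26 and Stat5b by 0.65; without replicate 2 they differed by 1.13 (adjusted p = 0.0719) and 0.16.

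In the overexpression arm both STAT5 genes were lower: Stat5a had 33.3 RPKM in the KAI1 overexpression, against 58.3 RPKM in its control (log2 difference -0.79), and Stat5b had 16.3 RPKM, against 20.9 RPKM (-0.34). Neither reached 2-fold. Stat5b had the smallest range of the 9 detected genes, 1.73-fold, while Stat5a spanned 2.55-fold. The Stat5a to Stat5b ratio was 2.71 and 3.07 in the knockdown, against 1.46 and 3.86 in its controls, and 2.05 in the overexpression, against 2.79 in its control. Stat5a was therefore the more abundant transcript per length in all 6 libraries, and the ratio was lowest in knockdown control replicate 1.

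Upstream of STAT5, 12 receptor, kinase and phosphatase genes were measured, and limma called 0 of the 12 in either direction, where 0.0297% of all tested entries were called. Csf2rb, the beta chain shared by the IL-3 and GM-CSF receptors, had 83.6 and 86.1 RPKM in the KAI1 knockdown, against 352 and 106 RPKM in the knockdown controls, and 232 RPKM in the overexpression, against 67.0 RPKM in its control. Csf2rb2, its close mouse paralog, had 56.1 and 63.9 RPKM in the knockdown, against 377 and 70.9 RPKM in the controls, and 196 RPKM in the overexpression, against 42.2 RPKM; reads may be split between the pair. Kit stood at 134 and 110 RPKM in the knockdown, against 437 and 83.3 RPKM in the controls, and at 189 RPKM in the overexpression, against 107 RPKM. All 3 receptor genes were highest in knockdown control replicate 1 and next in the KAI1 overexpression, the libraries where Stat5a was lowest. Ptpn6, the phosphatase SHP-1 that dampens KIT and cytokine signals, had 158 and 175 RPKM in the knockdown, against 357 and 115 RPKM in the controls, and 130 RPKM in the overexpression, against 178 RPKM.

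Among 10 genes known as STAT5 targets, 8 were tested in the knockdown arm and limma called 0; 1 lay above and 3 below both controls, beside 21.5% and 17% of all entries. In the overexpression arm 6 of the 10 were higher by 2-fold or more and 1 lower by 2-fold or more, where 4.92% and 5.21% of the 9936 entries averaging 1 RPKM or more in that arm passed the same thresholds. The median log2 difference was 1.81, against 0.01 over all entries of the arm. Pim2, a survival kinase, had 50.7 and 53.9 RPKM in the knockdown, against 76.9 and 65.8 RPKM in its controls, and 69.4 RPKM in the overexpression, against 60.4 RPKM in its control. Ccnd2, a D-type cyclin, had 23.6 and 18.6 RPKM in the knockdown, against 67.2 and 10.6 RPKM in the controls, and 66.6 RPKM in the overexpression, against 23.9 RPKM. The other 2 genes with the highest means were Bcl2l1 and Mcl1, which block cell death; both were higher in the overexpression, Bcl2l1 at 54.5 against 28.0 RPKM in the control and Mcl1 at 41.0 against 25.3 RPKM. Cish, Socs1 and Socs2, feedback inhibitors of cytokine signalling named after their values were seen, stood at 31.9, 16.9 and 11.8 RPKM in the overexpression, against 1.33, 2.95 and 0.177 RPKM in its control. Socs3, of the same family, stood at 0.863 RPKM in the overexpression, against 6.48 RPKM in its control. The targets were thus mostly higher in the library where both Stat5 transcripts were lower than in its control. Cish and Socs1 also had 16.3 and 12.3 RPKM in knockdown control replicate 1, against 2.72 and 0.368 RPKM in replicate 2. Of the 8 tested targets, 4 were at least 2-fold higher in control replicate 1 than in replicate 2 and 0 at least 2-fold lower, beside 12.8% and 8.56% of tested entries. Their median knockdown difference was -0.56, or -0.00 without control replicate 1 and -1.30 without replicate 2. STAT5 acts through phosphorylation, which RPKM do not measure.

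**Figure D2:**
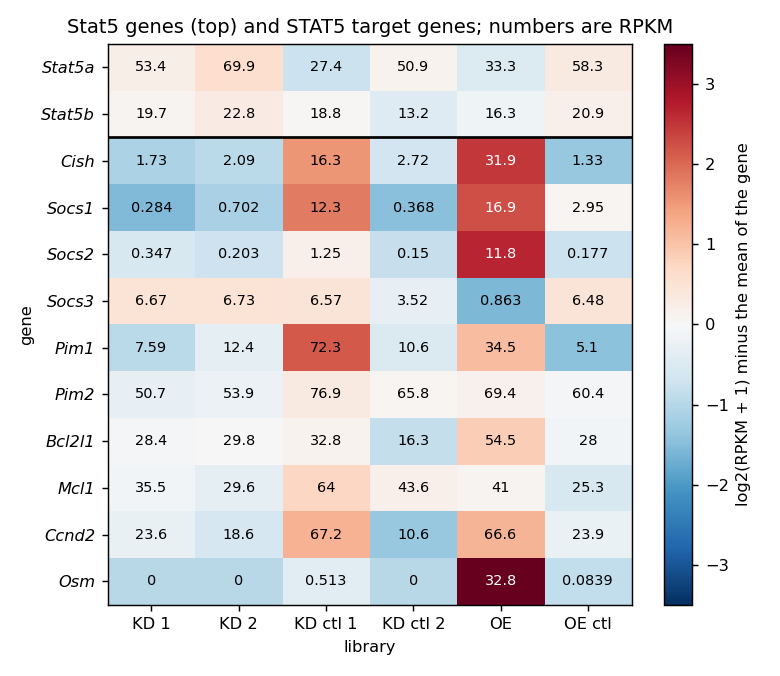
Stat5a, Stat5b (above the line) and 10 STAT5 target genes by library; the number in each cell is the RPKM of 1 library and the colour is log2(RPKM + 1) minus the gene's mean over the 6 libraries. Cish, Socs1, Socs2, Ccnd2 and Osm are red in the KAI1 overexpression, where Stat5a stands at 33.3 RPKM, against 58.3 RPKM in its control.

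Spi1 (chromosome 2, 90936954 to 90955913) had 31.9 and 35.6 RPKM in the KAI1 knockdown, against 36.4 and 16.1 RPKM in the knockdown controls. The knockdown pair lay close together between the controls. Its means were 33.8 ± 2.59 RPKM in the knockdown and 26.3 ± 14.3 RPKM in the controls (SD, n = 2 each), a log2 difference of 0.46 (SE 0.44, 95% interval -0.73 to 1.64, adjusted p = 0.842 by limma). It was 1.02 without knockdown control replicate 1 (adjusted p = 0.406) and -0.11 without replicate 2 (adjusted p = 0.69), so 1 library set its direction. In the overexpression arm Spi1 was nearly level, with 52.5 RPKM in the KAI1 overexpression, against 46.1 RPKM in its control (log2 difference 0.19). The Gata2 to Spi1 ratio was 2.33 and 3.60 in the knockdown, against 6.45 and 5.64 in its controls, and 3.07 in the overexpression, against 2.44 in its control. Both knockdown libraries therefore had less Gata2 per Spi1 transcript than either knockdown control, and the libraries of the overexpression arm also lay below those controls. The two-sided exact permutation test of 2 against 2 cannot go below p = 0.333, and no other test was run on this ratio.

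Cebpa, Cebpb and Cebpe were low. They averaged 2.07, 1.34 and 0.804 RPKM over the 6 libraries, and all 3 fell under the mean of 1 RPKM in the knockdown arm that the test required. Cebpa (chromosome 7, 35904312 to 35906951) had 1.45 and 1.27 RPKM in the KAI1 knockdown, against 0.0399 and 0.959 RPKM in the knockdown controls. The lowest of these rests on about 2 reads, where knockdown control replicate 2 had about 25 at a lower depth. The ratio of replicate 1 to replicate 2 was 0.0416, with a 95% exact interval of 0.00477 to 0.167 that covers counting error only. Cebpa was highest in the overexpression arm, at 4.58 RPKM in the KAI1 overexpression, against 4.11 RPKM in its control, a ratio of 1.11 (95% exact interval 0.933 to 1.33). Both libraries of that arm stood above all 4 of the knockdown arm. The Mitf to Cebpa ratio was 2.22 and 3.64 in the knockdown, against 341 and 4.09 in its controls, and 2.05 in the overexpression, against 0.635 in its control. Mitf exceeded Cebpa per length in all libraries but the overexpression control, and knockdown control replicate 1 was far from the rest through its 2 reads of Cebpa.

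Cebpb (chromosome 2, 167514415 to 167515918), which encodes a C/EBP factor induced by cytokines and used in emergency granulopoiesis, had 0.777 and 0.365 RPKM in the KAI1 knockdown, against 1.94 and 0.288 RPKM in the knockdown controls. It had 2.94 RPKM in the overexpression, against 1.73 RPKM in its control, a ratio of 1.70 (95% exact interval 1.21 to 2.40). The knockdown libraries lay between the controls, which differed 6.75-fold from each other (95% exact interval 2.48 to 25.7), in the opposite direction to Cebpa. Cebpa over Cebpb was accordingly 1.87 and 3.47 in the knockdown, against 0.0205 and 3.34 in the controls, and 1.56 in the overexpression, against 2.37 in its control. Cebpe (chromosome 14, 55329200 to 55331011), whose product drives late neutrophil and eosinophil granule genes, had 0.279 and 1.19 RPKM in the knockdown, against 0.188 and 0.723 RPKM in the controls, with the groups interleaved. In the overexpression it had 0.0913 RPKM, against 2.35 RPKM in its control. This is about 2 reads against about 68, a ratio of 0.0389 (95% exact interval 0.00462 to 0.146). Cebpe was thus lowest in the library where Cebpb was highest. These intervals cover the counting of reads in 2 libraries and say nothing of the spread between cultures.

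Gfi1 (chromosome 5, 108145674 to 108154825), a repressor needed for neutrophil maturation, had 0.914 and 1.90 RPKM in the KAI1 knockdown, against 1.79 and 0.879 RPKM in the knockdown controls. The groups overlapped. The means were 1.41 ± 0.70 RPKM in the knockdown and 1.33 ± 0.641 RPKM in the controls (SD, n = 2 each), and the log2 difference was 0.04 (SE 0.39, 95% interval -0.99 to 1.08, adjusted p = 0.983 by limma). The overexpression held 2.29 RPKM, against 0.759 RPKM in its control, 3.01-fold in RPKM. On the log2(RPKM + 1) scale that is 0.90 and under 2-fold, but with a pseudocount of 0.5 it is 1.15 and with 0.1 it is 1.47, both past 2-fold. Irf8 (chromosome 8, 123260276 to 123280592), which encodes the factor that specifies monocytes and dendritic cells, was listed at 0 in all 6 libraries. At the estimated depths, 3 reads on its transcript would have given 0.041 to 0.107 RPKM. Values from fewer reads were also listed, as for Cebpa at 0.0399 RPKM from about 2 reads in knockdown control replicate 1. A listed 0 does not exclude a transcript too rare to be sampled at these depths. None of 18 genes used by every cell was listed at 0, and their lowest value was 8.13 RPKM. Irf8 was 1 of 6683 entries other than small RNAs that were listed at 0 in all 6 libraries, and 68.91% of all entries had a mean above 0.

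Over the knockdown comparison, limma called 0 of the 6 factor genes tested at an adjusted p of 0.05, and 0 of the 6 had an unadjusted p under 0.05. The background over the 10113 entries tested was 0.0297% called (3 entries, all small RNAs) and 3.32% with an unadjusted p under 0.05. The adjusted p of the 6 genes ran from 0.83 to 0.983. Stat5a and Stat5b were the 2 of 6 with both knockdown libraries above both controls, a position held by 21.5% of all tested entries, and 0 of 6 lay below both controls, where 17% of entries did. Cebpa was also above both controls but below the level tested. In all 6 tested genes the 2 controls differed from each other by more than the groups did. The share of all tested entries with such a gap was not counted, so it cannot be read as particular to these genes. Gata2, Mitf and Spi1, 3 of the 6, were at least 2-fold higher in knockdown control replicate 1 than in replicate 2, against 12.8% of tested entries, and 0 were at least 2-fold lower, against 8.56%. Cebpb, not tested, was also past 2-fold higher.

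**Figure D3:**
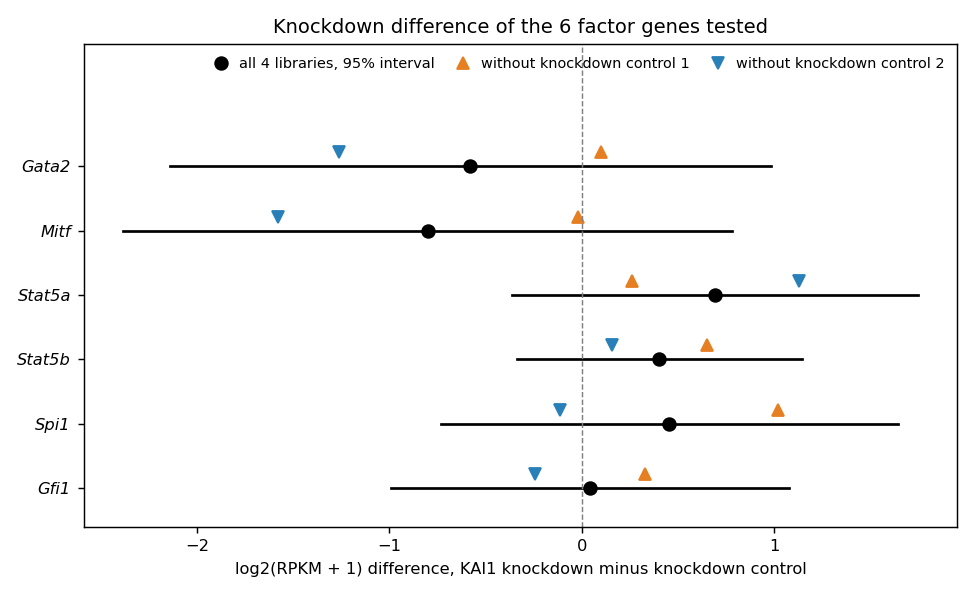
Knockdown minus control difference in log2(RPKM + 1) for the 6 factor genes tested (n = 2 each); circles are the fit with all 4 libraries with its 95% interval, and triangles the fits without knockdown control replicate 1 (up) or 2 (down). Every interval crosses 0, and leaving out 1 control moves Gata2 between -1.26 and 0.10 and Spi1 between -0.11 and 1.02.

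Over the overexpression comparison, 9 of the 10 genes had a mean of at least 1 RPKM in the arm. Mitf was at least 2-fold higher in the KAI1 overexpression than in its control and Cebpe at least 2-fold lower, 1 of 9 each, beside the 4.92% and 5.21% of all entries given above. The other 7 lay between -0.79 (Stat5a) and 0.90 (Gfi1) on the log2 scale. Gata2, Mitf, Cebpb and Gfi1 were higher by 0.52 to 1.53, Spi1 and Cebpa by 0.19 and 0.13. With 1 library on each side these differences have no replicate check. The 2 knockdown controls, which carry the same label, differed by 1.36 for Gata2, 1.57 for Mitf and 1.19 for Cebpb.

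GATA2 acts in mast cells on genes of the IgE receptor, histamine synthesis and granules. Of 9 such targets, all tested, limma called 0; 6 lay below both controls in the knockdown and 0 above, beside the 17% and 21.5% of all entries. The median log2 difference in the knockdown was -2.14, against 0.03 over all entries tested. It was -0.65 without knockdown control replicate 1 and -3.44 without replicate 2. Control replicate 1 exceeded replicate 2 by 2-fold or more for 8 of the 9, beside 12.8% of tested entries. The reverse held for 0 of the 9, beside 8.56% of tested entries. In the overexpression 5 of the 9 rose past the 2-fold threshold and 0 fell past it, beside 4.92% and 5.21% of all entries. The median log2 difference in that arm was 1.04, against 0.01 over all its entries. Cpa3, mast cell carboxypeptidase A, had 2930 and 2355 RPKM in the knockdown, against 6236 and 4110 RPKM in its controls, and 3895 RPKM in the overexpression, against 2246 RPKM in its control. Hdc, which makes histamine, had 32.7 and 64.2 RPKM in the knockdown, against 902 and 150 RPKM in the controls, and 52.8 RPKM in the overexpression, against 25.1 RPKM. Il1rl1, the IL-33 receptor ST2, had 26.8 and 32.6 RPKM in the knockdown, against 166 and 32.3 RPKM in the controls, and 56.0 RPKM in the overexpression, against 19.7 RPKM. These genes were higher in knockdown control replicate 1 than in any other library, as Gata2 and Mitf were. Il1rl1 differed 5.16-fold between the controls, where Gata2 differed 2.58-fold. The 9 were listed as known GATA2 targets, so the share of a GATA motif among them says nothing of binding in these cells. The motif lay in the promoter windows of 6 of the 9, beside 18.8% of genes. Windows of 3 are shown, chosen after values and matches were seen, because they belong to the granule and IgE receptor genes: Ms4a2, the receptor's beta chain (minus strand, chr19:11623720-11623969), Cpa3 (minus strand, chr3:20242182-20242431) and Fcer1a (minus strand, chr1:173227230-173227479). Capitals mark the motif on either strand, and each run reads in the direction of its gene.
Ms4a2: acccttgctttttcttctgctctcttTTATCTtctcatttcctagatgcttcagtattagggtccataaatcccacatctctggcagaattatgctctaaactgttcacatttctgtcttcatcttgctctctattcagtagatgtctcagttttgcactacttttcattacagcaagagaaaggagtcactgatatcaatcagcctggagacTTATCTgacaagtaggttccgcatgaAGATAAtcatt
Cpa3: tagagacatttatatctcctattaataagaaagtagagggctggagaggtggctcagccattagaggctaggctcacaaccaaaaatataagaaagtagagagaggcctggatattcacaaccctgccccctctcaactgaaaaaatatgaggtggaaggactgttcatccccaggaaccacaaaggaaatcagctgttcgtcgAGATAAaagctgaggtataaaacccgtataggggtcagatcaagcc
Fcer1a: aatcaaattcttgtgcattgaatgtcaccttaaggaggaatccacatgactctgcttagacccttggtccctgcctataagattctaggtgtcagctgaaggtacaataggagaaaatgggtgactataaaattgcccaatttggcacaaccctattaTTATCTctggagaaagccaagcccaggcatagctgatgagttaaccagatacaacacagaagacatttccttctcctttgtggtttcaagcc

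In Ms4a2 the motif begins 224, 37 and 11 bases before the start site, in Cpa3 46 and in Fcer1a 92 bases before it. Ms4a2 stood at 1.25 and 2.71 RPKM in the KAI1 knockdown, against 39.6 and 3.71 RPKM in its controls, and at 5.86 RPKM in the overexpression, against 0.443 RPKM in its control. Fcer1a was listed at 0 in knockdown replicate 1 and had 0.289 RPKM in replicate 2, against 24.2 RPKM in control replicate 1 and a listed 0 in control replicate 2; it had 7.41 RPKM in the overexpression, against 0.261 RPKM in its control. Both receptor chains were therefore highest in the libraries where Gata2 and Mitf were highest. Other motifs were searched in the same windows, namely TTCNNNGAA for STAT factors, TTGCNNAA for C/EBP factors and CACGTG or CATGTG, an E-box that MITF binds, on both strands. Of the 8 factor genes with a promoter, Irf8 held the STAT motif, Mitf and Gfi1 the C/EBP motif and none the E-box, beside 8.13%, 10.8% and 19.8% of all genes, each counted over any of its start sites. Among the STAT5 targets with a promoter, 1 of 7 held the STAT motif (14.3%). Among the MITF targets with a promoter, 0 of 5 held the E-box. The C/EBP motif lay before 3 of the 9 GATA2 targets (33.3%). In the 5 windows printed no match of these motifs overlaps a GATA motif.

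Mast cell genes known as MITF targets spread widely. All 6 were tested in the knockdown and limma called 0; 4 lay below both controls and 0 above, beside the 17% and 21.5% of all entries, and the median log2 difference was -3.05 with all libraries, -0.73 without knockdown control replicate 1 and -5.25 without replicate 2. In the overexpression 5 of the 6 were at least 2-fold higher, as 4.92% of all entries were, with a median difference of 3.47. Cma1, a mast cell chymase, had 1364 and 1149 RPKM in the knockdown, against 22312 and 2618 RPKM in the controls, and 8628 RPKM in the overexpression, against 879 RPKM in its control. Mcpt4, another chymase, had 66.8 and 165 RPKM in the knockdown, against 9416 and 220 RPKM in the controls, and 240 RPKM in the overexpression, against 23.2 RPKM. Tpsb2, a tryptase, had 25.7 and 44.9 RPKM in the knockdown, against 3379 and 45.1 RPKM in the controls, and 303 RPKM in the overexpression, against 7.72 RPKM. Gzmb, granzyme B, had 365 and 478 RPKM in the knockdown, against 554 and 447 RPKM in the controls, and 2775 RPKM in the overexpression, against 223 RPKM. The first 3 were highest in knockdown control replicate 1 and Gzmb in the KAI1 overexpression. These proteases belong to families of similar genes, so the split of reads among relatives is uncertain. Mitf itself differed 3.46-fold between the controls, and Tpsb2 differed 74.9-fold. Kit stands in this list, the GATA2 list and the STAT5 upstream list.

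On the myeloid side, 9 genes driven by C/EBP factors and PU.1 were measured, 4 of them high enough to test. Of these limma called 0, where 0.0297% of all tested entries were called. Mpo, the neutrophil peroxidase, had 750 and 470 RPKM in the KAI1 knockdown, against 7.84 and 538 RPKM in the knockdown controls, and 45.8 RPKM in the overexpression, against 661 RPKM in its control. Lyz2, lysozyme, had 14.7 and 10.4 RPKM in the knockdown, against 0.499 and 6.31 RPKM in the controls, and 0.158 RPKM in the overexpression, against 4.66 RPKM. Both were lowest in the libraries with the highest Mitf. Cebpa was also lowest in knockdown control replicate 1, but highest in the KAI1 overexpression, where Mpo was low. Prtn3, proteinase 3, was listed at 0 in both of those libraries and had 0.753 and 3.04 RPKM in the knockdown, against 1.1 RPKM in control replicate 2, with 3.36 RPKM in the overexpression control. Csf2ra, the GM-CSF receptor alpha chain, had 3.14 and 2.36 RPKM in the knockdown, against 5.84 and 3.12 RPKM in the controls, and 7.68 RPKM in the overexpression, against 4.6 RPKM. The median log2 difference of the 4 was 1.45 in the knockdown (0.24 without control replicate 1, 2.29 without replicate 2) and -2.21 in the overexpression. Not every myeloid marker followed Mpo and Lyz2. Ctsg, a neutrophil marker, was highest in the overexpression and knockdown control replicate 1, at 1295 and 1080 RPKM, against 444 and 434 RPKM in the knockdown. The summed RPKM of 12 neutrophil markers was 1198 and 910 in the knockdown, against 1089 and 1210 in its controls. It was 1341 in the overexpression, against 1701 in its control. All 5 secondary granule genes that C/EBP epsilon drives, among them Ltf, Ngp, Lcn2 and Mmp8, were below 1 RPKM in every library. Low values were common, since only 44.75% of all entries had a higher mean than Cebpe, at 0.804 RPKM. Of 6 genes linked to IRF8 in monocytes, 4 were below 1 RPKM in every library, including Ctss and Klf4. The exceptions were Naip2, with 4.41 and 3.65 RPKM in the knockdown, against 5.24 and 4.56 RPKM in the controls, and Cst3. Cst3, cystatin C, had 347 and 418 RPKM in the knockdown, against 505 and 292 RPKM in the controls, and 334 RPKM in the overexpression, against 350 RPKM in its control.

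**Figure D4:**
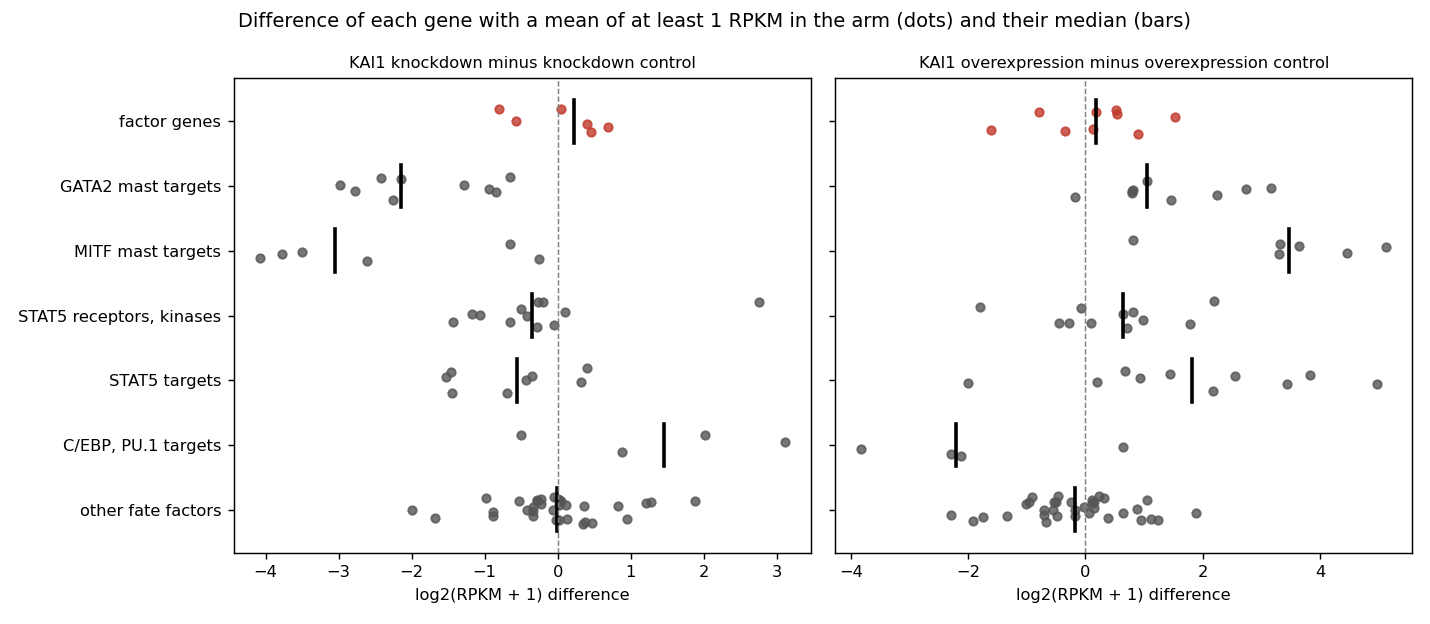
Difference in log2(RPKM + 1) for KAI1 knockdown minus its control (left, n = 2 each) and KAI1 overexpression minus its control (right, n = 1 each); each dot is 1 gene with a mean of at least 1 RPKM in that arm and each bar the median of the list. The 6 tested factor genes lie between -0.80 and 0.69 on the left, while the medians of the GATA2 and MITF mast targets are -2.14 and -3.05.

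Of 40 other factors of blood cell fate, 34 were tested in the knockdown arm and limma called 0; 9 lay above both controls and 5 below, beside 21.5% and 17% of all entries. The median difference was -0.01, against 0.03 over all tested entries; it was 0.19 without knockdown control replicate 1 and -0.38 without replicate 2. In the overexpression 4 of 34 were higher by 2-fold or more and 5 lower, beside 4.92% and 5.21% of all entries. Myb, a factor of immature progenitors, had 176 and 145 RPKM in the KAI1 knockdown, against 48.5 and 139 RPKM in the knockdown controls, and 82.2 RPKM in the overexpression, against 161 RPKM in its control. Id2, an inhibitor of helix-loop-helix factors, had 51.3 and 64.9 RPKM in the knockdown, against 379 and 92.2 RPKM in the controls, and 134 RPKM in the overexpression, against 55.9 RPKM. Myb was thus lowest, and Id2 highest, in knockdown control replicate 1, where Gata2 and Mitf were highest. Ddit3, the stress-induced C/EBP relative CHOP, had 128 and 149 RPKM in the knockdown, against 449 and 145 RPKM in the controls, and 180 RPKM in the overexpression, against 92.8 RPKM. Egr1, an immediate early factor that favours macrophages, had 174 and 96.6 RPKM in the knockdown, against 267 and 86.5 RPKM in the controls, and 43.0 RPKM in the overexpression, against 110 RPKM. Gata1, the erythroid, mast and megakaryocyte GATA factor, was set against Gata2 after its values were seen. The Gata2 to Gata1 ratio was 1.41 and 2.64 in the knockdown, against 2.69 and 1.70 in its controls, and 4.99 in the overexpression, against 3.06 in its control. Gata2 exceeded Gata1 per length in every library.

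Likeness of profiles was measured as the root mean square difference between centred log2(RPKM + 1) values over the 6 libraries, for description only. Among entries averaging 1 RPKM or more, the closest to Gata2 were Fam219a (0.0829), Camkmt (0.105) and Stoml1 (0.119), and to Mitf F2r (0.0898), Slc2a3 (0.0904) and Prrc1 (0.0928). The closest to Stat5a was Fads2 (0.0392), to Stat5b Zswim8 (0.041), to Spi1 Prrc2a (0.0925) and to Gfi1 Jun (0.0912). Cebpb was nearest to Reep5 (0.181). Cebpa had no near neighbour: its closest entry was Mrto4 at 0.304. Among the 8 factor genes averaging 1 RPKM or more, the nearest was Mitf for Gata2 and Gata2 for Mitf (0.347). Gata2 was also the nearest to Gfi1 (0.366), and Spi1 and Cebpb were nearest to each other (0.374). The nearest was Gfi1 for Stat5b (0.406), Stat5b for Stat5a (0.435) and Spi1 for Cebpa (0.707). The STAT5 pair therefore differed from each other more than Gata2 and Mitf did.

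Set against each other by the same measure over the 10 factor genes, without centring, KAI1 knockdown replicate 1 and knockdown control replicate 2 were the closest libraries (0.428), closer than the knockdown replicates to each other (0.46). The 2 knockdown controls were 0.97 apart, and the overexpression and its control 0.842. Knockdown control replicate 1 and the overexpression control were the farthest apart (1.20). In the factor genes, as over all entries, where the 2 knockdown controls were 1.1 apart and the knockdown replicates 0.618, the spread inside the control group was larger than that inside the knockdown. Whether the marker sums given above followed these distances, and their part in the levels of the factor genes, was not tested.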

How the data were processed

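The authors deposited 1 table of RPKM per library, a unit normalized for length and depth, per the file headers. Per the submitters' processing notes, tools were TopHat2 2.0.9, Bowtie and Cufflinks on build mm9; strand was not stated. Of 23170 entries, 24 repeats were dropped, and symbols came from RefSeq for 22840 entries. Coordinates are the files' mm9 ones, promoters are RefSeq's on GRCm38.p6.

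Knockdown was tested with limma 3.58.1 (R 4.3.3, two-sided, mean-variance trend, Benjamini-Hochberg over 10113 entries) on log2(RPKM + 1) of entries averaging 1 RPKM or more in the 4 libraries. Overexpression has 1 library a side and was described by 2-fold size over 9936 entries. Whole reads of low genes, the smallest counts matching the values (Cebpe at 2 times these), gave exact binomial intervals. The script was tested on simulated data.

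Named were the 10 factor genes and, of each other list, the 4 with the highest mean. Members and lists were chosen with earlier results of these data known. Alternatives changed the pseudocount, filter, scaling, trend, small RNA entries, block and each replicate. A gene of the STAT5 upstream list is not reported here.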

Additional observations from a re-analysis of the deposited data

How the results depend on the processing

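Of the 3 calls over all entries in the knockdown comparison, none was a factor gene. The count was 5 with a pseudocount of 0.1, 0 with no filter (683 at an unadjusted p under 0.05), 0 with small RNA entries left out (335 at an unadjusted p under 0.05), and 0 to 1045 when 1 library was left out: 0 without either knockdown replicate (88 and 58 at an unadjusted p under 0.05), 16 without control replicate 1 and 1045 without control replicate 2. Quantile scaling gave 1 call higher and 1 lower in the knockdown, against 1 higher and 2 lower as deposited. The overexpression count of entries past 2-fold, 1007, was 654 with a mean of at least 5 RPKM, where fewer entries are tested.

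For the factor genes, 73 of 77 alternative knockdown values kept their direction and stayed on the same side of the threshold, and 4 took the other direction. With 1 library left out in turn, Gata2 ran from -1.26 to 0.10, Spi1 from -0.11 to 1.02 and Gfi1 from -0.26 to 0.34. The cause was not tested. In the overexpression 39 of 41 values held, the exceptions being Gfi1 with smaller pseudocounts.

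With the replicate block limma called 4 entries, and no factor gene. Same-numbered libraries did not deviate together (r = -0.0754 over 10113 entries). With a single difference per group, this cannot tell whether same-numbered libraries were prepared together.

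Depth limits Cebpa, Cebpb and Cebpe, where single libraries rest on 2 to 4 reads.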
